A study of Sus scrofa with 12 samples.

Results

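The 10 genes described here encode proteins that hydroxylate, fold and release procollagen: the prolyl 4-hydroxylase catalytic subunits P4HA1, P4HA2 and P4HA3, the lysyl hydroxylases PLOD1, PLOD2 and PLOD3, the chaperones SERPINH1 and FKBP10, the prolyl 3-hydroxylase P3H1 and the procollagen C-proteinase enhancer PCOLCE. They were chosen by gene name for their place in this pathway, with no measured cutoff but with earlier results of these data known. Of these genes, 10 of 10 matched 1 Ensembl identifier each among the 35682 in the count files. RNA was sequenced from the hearts of 6 pigs, with 1 library from the border zone, the tissue next to the infarct, and 1 from the remote zone, the posterior wall, of each animal. The animals, numbered 1022, 1322, 1323, 1623, 1922 and 3622, were female Yorkshire pigs that were 10 to 12 weeks old at the start. In all of them a balloon closed the left anterior descending artery for 60 min, and from day 9 each received 20 mg of prednisolone and 500 mg of mycophenolate mofetil a day, with tacrolimus at 0.75 mg per kg of body weight. On day 14 an animal received either vascular organoids made of human endothelial progenitor and smooth muscle cells or fibrin glue alone, and hearts were taken 4 weeks later. The labels do not say which animal had which treatment, so both zones are mixtures of treated and control animals, paired by animal, and the treatment was not compared. No uninjured heart was analysed here, and the remote zone is therefore tissue of the same injured, immunosuppressed hearts.

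A procollagen chain is modified while it is still being made in the endoplasmic reticulum. Prolyl 4-hydroxylases add the hydroxyl groups that keep the triple helix stable at body temperature, and they need oxygen, iron, 2-oxoglutarate and ascorbate to do so. Lysyl hydroxylases modify the lysines from which sugar side chains and the cross-links of the finished fibril are later built, and chaperones hold the helix together until the molecule leaves for the Golgi. Outside the cell the end propeptides are cut off, which lets fibrils form. In an infarcted heart the scar is built by activated fibroblasts, the main makers of fibrillar collagen there.

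Counted reads numbered 15130210 to 30526110 per border zone library and 20091415 to 31618680 per remote zone library. Levels below are CPM, read counts scaled to a common library size, after trimmed mean of M-values (TMM) scaling, a correction for differences in library composition, and differences are log2 fold changes of border zone over remote zone, so that positive values are higher in the border zone. A gene was called where edgeR's quasi-likelihood test over 13844 genes gave a Benjamini-Hochberg adjusted p under 0.05. A pair of border zone libraries stood apart. That of animal 1022 had a summed level of 11 fibroblast marker genes of 11801 CPM, against 919 to 1910 in the other border zone libraries and 520 to 900 in the remote zone, and a summed level of 11 cardiomyocyte marker genes of 13203 CPM, against 48217 to 77536 and 62306 to 111995. The fibroblast genes were uneven in this, since that library held 83.4% of the summed border zone level of FN1 and 18.4% of that of DPT, the lowest share, which was named after its value was seen. That of animal 3622 had the lowest read total and reads on 28024 identifiers, against 16932 to 20148 in the other 11 libraries. Cardiomyocyte transcripts were abundant in every library, as the label heart requires. In bulk tissue, a larger number of cells of a type and more RNA per cell cannot be told apart.

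All 10 genes had a log2 fold change above 0, as had 53.3% of all genes tested. The median was 0.82, against 0.04 over all genes tested, and it was 0.51 without the border zone library of animal 1022. P4HA3, FKBP10 and PCOLCE were called, all higher in the border zone, which is 3 of 10 against 2.06% of all genes tested, and 0 of 10 were lower. PLOD2 had the next lowest adjusted p, 0.0501. The border zone level was higher than the remote zone level in all 6 animals for 6 of the 10 genes, as for 11.7% of all genes tested, and in at least 5 of 6 animals for 10 of 10, as for 28.8% of all genes tested. P4HA3 alone had every border zone library above every remote zone library, which is 1 of 10 against 1.99% of all genes tested. It passed the filter on low counts through its border zone libraries, so it had to differ, and its part in these counts carries no weight. Because the genes were chosen with earlier results of these data known, the counts and shares are descriptions.

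**Figure D1:**
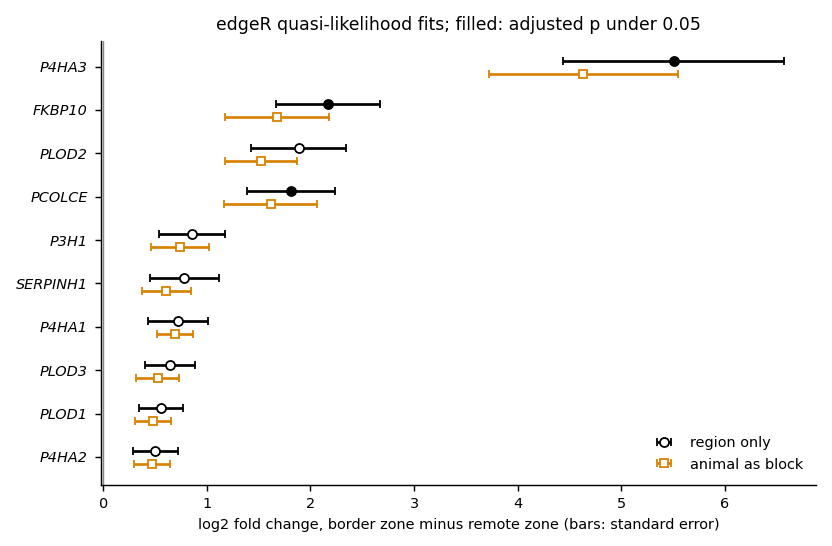
Log2 fold change of border zone over remote zone for the 10 genes (x axis), with bars of 1 standard error, from edgeR quasi-likelihood fits of 12 libraries with region only (circles) and with the animal as a block (squares). Filled symbols have an adjusted p under 0.05. P4HA3 lies at 5.50, FKBP10, PLOD2 and PCOLCE lie between 1.81 and 2.17, and the other 6 genes between 0.50 and 0.85.

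These calls did not hold in every fit. With the animal as a block, 0 of 10 genes were called, against 0.289% of all genes tested, and the adjusted p of the 10 ran from 0.0694 for P4HA3 to 0.142 for PLOD3. In edgeR's fit with region only, 10 of 10 had an unadjusted p under 0.05, as had 3425 of all 13844 genes tested. Leaving out the border zone library of animal 1022 alone left 3 of 10 called (P4HA3, FKBP10 and PLOD2), against 2.15% of all genes tested. With the animal as a block and animal 1022 left out, 5 of 10 were called (P4HA1, P4HA3, PLOD2, FKBP10 and PCOLCE), against 4.11% of all genes tested. DESeq2's Wald test called 4 of 10 (P4HA3, PLOD2, FKBP10 and PCOLCE), against 4.7% of the 30085 genes with at least 1 read. That base includes genes to which it gave no p value, such as FN1, so 4.7% understates the share of genes tested. With library totals in place of TMM scaling, edgeR called 6 of 10, against 11.2% of all genes tested. In edgeR's fit with region only, 2 of 10 were called without animal 1022, where 157 of 13831 genes were called higher, and 4 of 10 without animal 1322, where 509 of 13966 were. The calls went to 0 of 10 without animal 1323, 1623, 1922 or 3622, fits that called 3, 0, 15 and 0 genes in all and so say little of the 10. Without the border zone library of animal 3622 alone, P4HA3 was the 1 of 10 called, among 156 genes in all. P4HA3 is in every count of calls above 0 in these fits, and its part in them carries no weight.

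**Figure D2:**
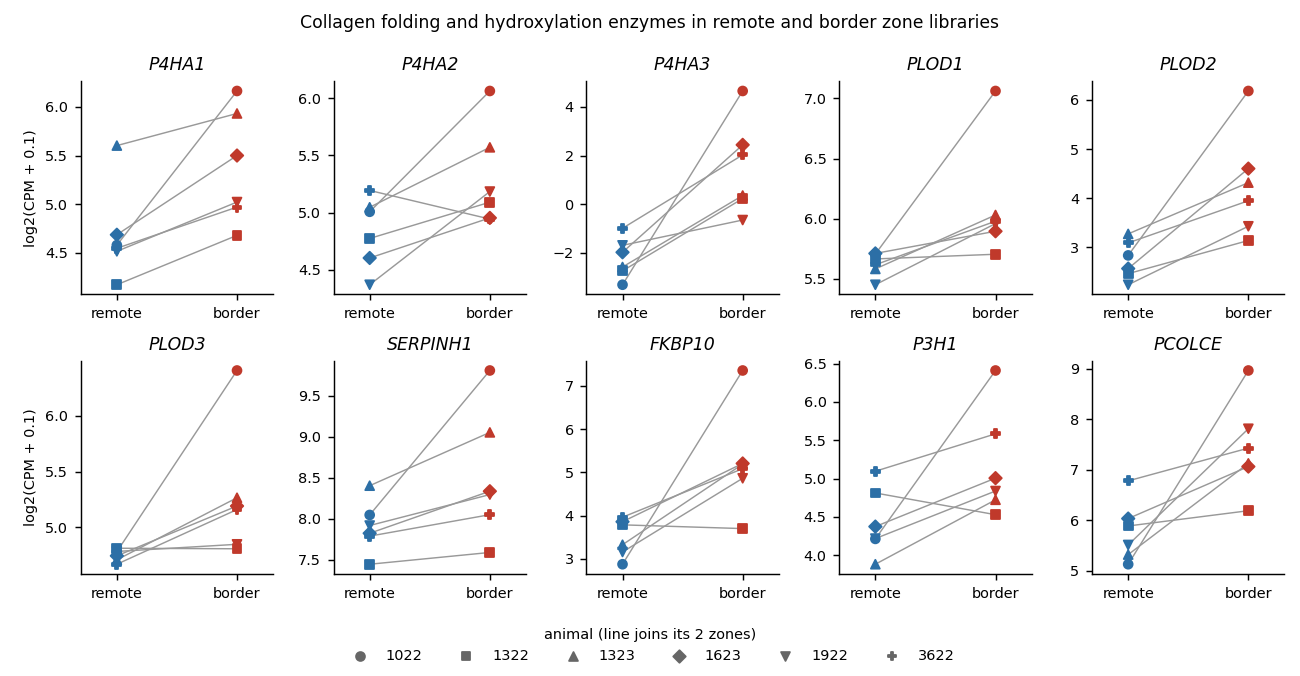
Level of each of the 10 genes in every library, as log2(CPM + 0.1) on the y axis, with remote zone libraries in blue, border zone libraries in red and a line joining the zones of 1 animal. In each panel the border zone library of animal 1022 (circle) is the highest, and the lines of animal 1322 (square) are nearly flat for PLOD1, PLOD3 and FKBP10.

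The animals differed in the size of the difference. The within-animal difference was largest in animal 1022 for 10 of 10 genes and smallest in animal 1322 for 7 of 10. Over the 10 genes its median was 1.98 in animal 1022 and 0.22 in animal 1322, on a log2 CPM scale with a prior count of 2. The other animals lay between 0.49 in animal 3622 and 0.75 in animal 1323. Over all genes tested the same median ran from -0.04 in animal 1022 to 0.14 in animal 3622, with 0.03 in animal 1322. How many of all genes had their largest difference in animal 1022 was not counted. Of the 10 genes, 7 were higher in the border zone in animal 1322, 9 in animal 3622 and 10 of 10 in the other 4 animals. The summed fibroblast markers had the same extremes among border zone libraries, with the highest value in animal 1022 and the lowest, 919 CPM, in animal 1322, and their part in these differences was not tested.

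The prolyl 4-hydroxylases are tetramers of catalytic alpha subunits, encoded by P4HA1, P4HA2 and P4HA3, with the beta subunit P4HB, which is also protein disulfide isomerase. P4HA3 (ENSSSCG00000014840, chromosome 9: 8627365-8681804, minus strand; positions are those of RefSeq's gene models on Sscrofa11.1, the build the reads were aligned to) had the largest log2 fold change of the 10, from the lowest levels. Its border zone levels were 25.1 CPM in animal 1022, 1.07 in 1322, 1.18 in 1323, 5.32 in 1623, 0.534 in 1922 and 3.97 in 3622. The remote zone libraries of the same animals had 0, 0.0484, 0.0659, 0.153, 0.208 and 0.401 CPM. In reads these were 11 to 761 per border zone library and 0 to 6 per remote zone library, so the gene was near the limit of detection in the remote zone and present at a low level in all 6 border zone libraries. Of the level summed over the border zone, 67.6% came from animal 1022.

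P4HA3 had a log2 fold change of 5.50 (SE 1.06, n = 6 libraries per zone, edgeR adjusted p = 0.0276), which depends on the prior count because the remote zone reads are so few. The fit that took the animal as a block gave 4.63 and an adjusted p of 0.0694. Without the border zone library of animal 1022 it was 4.12, with an adjusted p of 0.0139. Leaving out animals 1323, 1623, 1922 or 3622 gave adjusted p values of 0.0631 to 0.108. P4HA3 passed the filter on low counts through its border zone libraries, so these p values carry no weight as tests.

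P4HA1 (ENSSSCG00000010292, chromosome 14: 75827207-75919121, minus strand) is the main catalytic subunit in most cells. It ranged from 25.5 to 71.6 CPM in the border zone, with a median of 38.8, and from 17.9 to 48.5 CPM in the remote zone, with a median of 23.5. The ranges overlapped, and the remote zone library of animal 1323 was above 4 of the 6 border zone libraries. Within animals the border zone was higher in 6 of 6, by 0.33 in animal 1323 to 1.59 in animal 1022 on the log2 scale. The log2 fold change was 0.72 (SE 0.29, adjusted p = 0.154), and 0.69 with the animal as a block (adjusted p = 0.0814).

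P4HA2 (ENSSSCG00000020915, chromosome 2: 134502210-134595444, minus strand) encodes the alternative subunit, known from cartilage and bone. Its border zone levels were 30.7 to 66.7 CPM around a median of 35.1, and its remote zone levels 20.6 to 36.5 CPM around a median of 29.7. The border zone libraries of animals 1022 and 1323 were the 2 above all remote zone libraries, and in animal 3622 the border zone was the lower one, at 30.7 against 36.5 CPM. Its log2 fold change of 0.50 (SE 0.21, adjusted p = 0.171) was the smallest of the 10 genes, and it was 0.30 without the border zone library of animal 1022 (adjusted p = 0.376).

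The lysyl hydroxylases act on different parts of the molecule. PLOD1 modifies lysines in the triple helix, PLOD2 those in the telopeptides, the short ends that carry the cross-linking sites of stiff, mature fibrils, and PLOD3 also transfers sugars to hydroxylysine. PLOD2 (ENSSSCG00000011689, chromosome 13: 86402673-86513167, minus strand) had border zone levels of 72.5 CPM in animal 1022, 8.72 in 1322, 19.8 in 1323, 24.2 in 1623, 10.7 in 1922 and 15.3 in 3622. Remote zone levels were 7.05, 5.43, 9.58, 5.84, 4.63 and 8.42 CPM in the same order. Of the 6 border zone libraries 5 were above every remote zone library, and that of animal 1322 lay within the remote zone range. Every animal had the higher level in the border zone, 1.60-fold in animal 1322 and 10.2-fold in animal 1022.

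PLOD2 had a log2 fold change of 1.89 (SE 0.46, edgeR adjusted p = 0.0501), just outside the threshold. The value was 1.52 with the animal as a block (adjusted p = 0.0774) and 1.20 without the border zone library of animal 1022 (adjusted p = 0.0371). Over all 21 alternative fits it ran from 1.17 to 2.29, and 5 of them called it.

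PLOD1 (ENSSSCG00000003433, chromosome 6: 71987938-72019712, plus strand) was nearly level across the remote zone, at 43.6 to 52.3 CPM. In the border zone it was 133 CPM in animal 1022 and 52.0 to 65.3 CPM in the others, so 5 of 6 border zone libraries were above every remote zone library, 4 of them by a small margin. The log2 fold change was 0.56 (SE 0.21, adjusted p = 0.134), and it was 0.29 without the border zone library of animal 1022. PLOD3 (ENSSSCG00000028879, chromosome 3: 8911787-8919525, minus strand) behaved alike in size, with 25.3 to 28.0 CPM in the remote zone, 84.7 CPM in the border zone of animal 1022 and 27.9 to 38.4 CPM in the other border zone libraries. Its log2 fold change was 0.65 (SE 0.24, adjusted p = 0.133), and 0.31 without the border zone library of animal 1022. Of its exon bases, 19.1% are shared with the opposite-strand gene ZNHIT1, and reads of the genes cannot be told apart there because the libraries carry no strand. ZNHIT1 itself had a log2 fold change of -0.64 (adjusted p = 0.0796).

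The balance within the lysyl hydroxylase family was compared by ratios within a library, which do not depend on how libraries are scaled. The log2 ratio of PLOD2 to PLOD1 was higher in the border zone by 1.04 ± 0.69 (mean ± SD of within-animal differences, n = 6 animals), in 6 of 6 animals. The ratio of PLOD2 to PLOD3 was higher by 0.996 ± 0.57, also in 6 of 6 animals. A two-sided exact permutation test that flips the sign of each animal's difference gave p = 0.03125 for both, the smallest value possible with 6 animals, and an adjusted p (Benjamini-Hochberg, 4 ratios) of 0.0625. Without animal 1022 the mean differences were both 0.85. With the zones as unpaired groups, which ignores the pairing by animal, the adjusted exact permutation p was 0.026 for both. PLOD3 to PLOD1 differed by 0.05 ± 0.27, with 4 of 6 animals higher (exact permutation p = 0.688), and P4HA1 to P4HA2 by 0.23 ± 0.40, also with 4 of 6 (exact permutation p = 0.25).

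**Figure D3:**
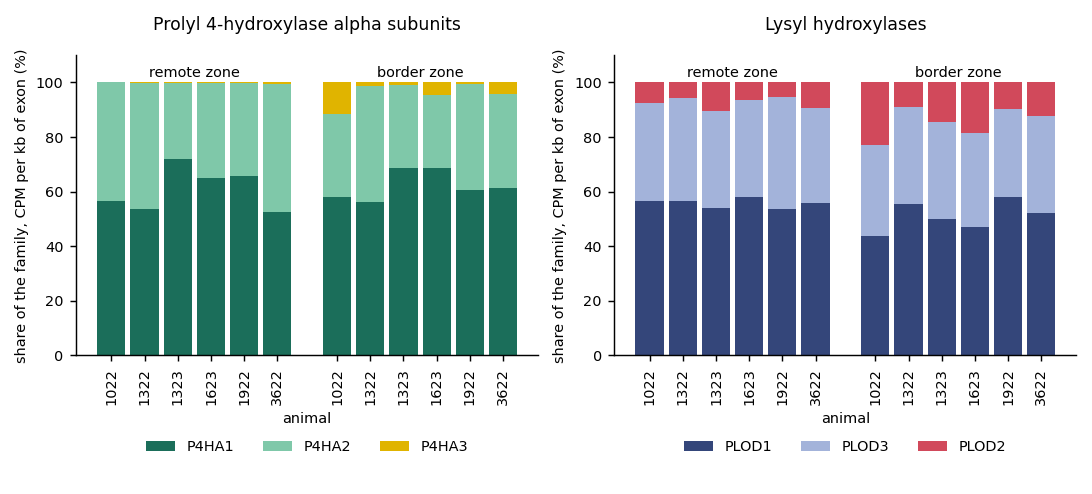
Share of each gene in its family's summed level (y axis, percent, from CPM per kb of exon) in every library, for the prolyl 4-hydroxylase alpha subunits (left) and the lysyl hydroxylases (right), with remote zone bars left of border zone bars and animals in the same order. PLOD2 takes 5.50 to 10.5% of its family in the remote zone and 8.95 to 22.9% in the border zone, and P4HA3 is visible in the border zone bars, with its largest share, 11.4%, in animal 1022.

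Levels per kb divide the counts, made on Ensembl gene models, by exon lengths of RefSeq's models. Per kb of exon, PLOD1 was the most abundant lysyl hydroxylase in every library and PLOD2 the least. The median share of PLOD2 in the family was 13.5% in the border zone and 6.83% in the remote zone, higher in the border zone in 6 of 6 animals, while that of PLOD1 was 51.1% and 56.2%, higher in 1 of 6. P4HA1 made up a median of 61.1% of alpha subunit transcripts in the border zone and 60.8% in the remote zone. P4HA3 made up 2.85% and 0.149%, so P4HA1 and P4HA2 accounted for most alpha subunit transcripts in every library of both zones. The share of P4HA1 rests on exon lengths of 3019 bases for P4HA1 and 5311 for P4HA2. Before division by length, their log2 ratio had a median of 0.06 in the border zone and -0.17 in the remote zone.

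SERPINH1 (ENSSSCG00000039468, chromosome 9: 9782939-9794485, plus strand), also called HSP47, is the collagen-specific chaperone that binds the folded triple helix. It was the most abundant of the 10 genes in both zones, with median levels of 147 CPM per kb of exon in the border zone and 108 in the remote zone. The border zone libraries ranged from 193 to 898 CPM around a median of 319, and the remote zone libraries from 174 to 339 CPM around a median of 234. Only the border zone libraries of animals 1022 and 1323 were above every remote zone library. The log2 fold change was 0.78 (SE 0.33, adjusted p = 0.171), and 6 of 6 animals were higher in the border zone, by 0.14 in animal 1322 to 1.76 in animal 1022. It was 0.61 with the animal as a block (adjusted p = 0.136) and 0.41 without the border zone library of animal 1022 (adjusted p = 0.389).

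FKBP10 (ENSSSCG00000017422, chromosome 12: 20872155-20881604, minus strand), also called FKBP65, is a prolyl isomerase of the endoplasmic reticulum that works with PLOD2 on telopeptide lysines, and it rose in the border zone. Its levels there were 164 CPM in animal 1022, 12.9 in 1322, 36.5 in 1323, 36.8 in 1623, 29.0 in 1922 and 33.9 in 3622. The remote zone had 7.25, 13.7, 9.94, 14.4, 8.84 and 15.5 CPM. Animal 1322 was the exception, since its border zone was slightly below its remote zone, and its border zone library was the 1 of 6 within the remote zone range. Animal 1022 combined the lowest remote zone level with the highest border zone level, 22.4-fold apart on the scale with a prior count of 2.

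FKBP10 had a log2 fold change of 2.17 (SE 0.50, n = 6 libraries per zone, edgeR adjusted p = 0.0427). It was 1.68 with the animal as a block (adjusted p = 0.0925) and 1.36 without the border zone library of animal 1022 (adjusted p = 0.0209). Leaving out animals 1323, 1623, 1922 or 3622 gave adjusted p values of 0.0992 to 0.157.

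P3H1 (ENSSSCG00000023920, chromosome 6: 168668275-168687832, plus strand) encodes the prolyl 3-hydroxylase that acts in a complex with CRTAP and cyclophilin B, the product of PPIB. It ranged from 23.0 to 85.0 CPM in the border zone, with a median of 30.3, and from 14.7 to 34.1 CPM in the remote zone, with a median of 19.6. The highest remote zone library, that of animal 3622, was above 4 of the 6 border zone libraries, while within that animal the border zone was the higher. The log2 fold change was 0.85 (SE 0.32, adjusted p = 0.133), with 5 of 6 animals higher in the border zone and animal 1322 lower by 0.28. It was 0.74 with the animal as a block (adjusted p = 0.127) and 0.49 without the border zone library of animal 1022 (adjusted p = 0.301).

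PCOLCE (ENSSSCG00000027466, chromosome 3: 8523455-8528749, plus strand) acts outside the cell, where it speeds the removal of the C-propeptide by BMP1, and it rose in the border zone. Border zone levels were 499 CPM in animal 1022, 72.7 in 1322, 139 in 1323, 133 in 1623, 224 in 1922 and 172 in 3622. Remote zone levels were 34.8, 58.9, 39.7, 65.2, 45.4 and 110 CPM. Of the border zone libraries 5 were above every remote zone library, and that of animal 1322 was below the remote zone library of animal 3622 alone. PCOLCE was the second most abundant of the 10 genes per kb of exon in both zones, at a median of 92.1 CPM per kb in the border zone and 30.9 in the remote zone.

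PCOLCE had a log2 fold change of 1.81 (SE 0.42, n = 6 libraries per zone, edgeR adjusted p = 0.0452), with 6 of 6 animals higher in the border zone. The fit with the animal as a block gave 1.62 (adjusted p = 0.0851), and the fit without the border zone library of animal 1022 gave 1.33 (adjusted p = 0.0501). Leaving out animals 1022, 1323, 1623, 1922 or 3622 gave adjusted p values of 0.0839 to 0.159. RefSeq's model of FBXO24 reads through the locus on the same strand and shares 99.6% of the exon bases of PCOLCE, so how reads were divided between them is uncertain. FBXO24 was counted at 0.682 to 1.84 CPM, far below PCOLCE in every library.

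The order of the levels per kb of exon changed little between zones. SERPINH1, PCOLCE and PLOD1, in this order, led both, and PLOD2 and P4HA3 were last. FKBP10 moved from rank 8 in the remote zone, at a median of 4.48 CPM per kb, to rank 4 in the border zone, at 13.3. Its border zone range of 4.89 to 62.1 CPM per kb covered the medians of P4HA1, PLOD3, P3H1 and P4HA2, so those neighbours were not separated beyond their spread.

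Across the 12 libraries the 10 genes varied together. The 45 pairwise Pearson correlations of log2 CPM ran from 0.41 to 0.97 with a median of 0.83, and without the border zone library of animal 1022 from -0.04 to 0.92 with a median of 0.62. These are descriptions, since libraries of 1 zone or 1 animal share their source. Within the 6 remote zone libraries alone the median was 0.04. P4HA1 and SERPINH1 had r = 0.91 in the remote zone and 0.92 over 12 libraries, and FKBP10 and PCOLCE had 0.89 and 0.95. P4HA1 and P3H1 had the lowest Pearson correlation over 12 libraries, 0.41, and SERPINH1 and P3H1 the lowest within the remote zone, -0.79.

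The enzymes were set beside their substrate COL1A1, the alpha 1 chain of collagen I, which had a log2 fold change of 4.05 (SE 0.81, edgeR adjusted p = 0.0295, 0.0821 with the animal as a block) and of 2.49 without the border zone library of animal 1022. COL1A1 ranged from 878 to 30498 CPM in the border zone and from 235 to 681 CPM in the remote zone, without overlap. The within-animal difference of COL1A1 was itself 1.08 to 7.02, so that a gene at the same level in both zones would have a lower ratio to COL1A1 in the border zone of every animal. The log2 ratio was lower in 6 of 6 animals for 9 of the 10 genes, which the rise of COL1A1 sets in large part. The median drop was smallest for FKBP10, with a difference of -1.07, followed by PCOLCE at -1.11 and PLOD2 at -1.21, and largest for PLOD1, at -2.22. P4HA3 was the exception, with a lower ratio to COL1A1 in 1 of 6 animals, animal 1922, and a median difference of 1.41. Animal 1022 had the largest drop for each of the other 9 genes, from -2.53 for FKBP10 to -5.96 for P4HA2.

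Of 10 partner subunits and other collagen-modifying enzymes, 1 was called higher, 0 were called lower, and the median log2 fold change was 0.70. The called gene was COLGALT2, a galactosyltransferase of hydroxylysine, with a log2 fold change of 1.31 (SE 0.29, adjusted p = 0.0356) and border zone and remote zone medians of 6.96 and 2.84 CPM. P3H3, a partner of PLOD1 in lysine hydroxylation, had a log2 fold change of 1.83 (adjusted p = 0.0721), and of 1.05 without the border zone library of animal 1022. The shared beta subunit P4HB had 0.37 (adjusted p = 0.241), with medians of 285 and 246 CPM, and TMEM38B, an ion channel of the endoplasmic reticulum, had -0.64 (adjusted p = 0.145).

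In the list of 7 genes for propeptide removal, 6 were tested, 1 was called and the median was 0.84. ADAMTS2, which cuts off the N-propeptide, was called with a log2 fold change of 2.52 (SE 0.45, adjusted p = 0.0253). BMP1, the C-proteinase that PCOLCE assists, had 1.44 (adjusted p = 0.0501), with 6 of 6 animals higher in the border zone, and ADAMTS3, another N-proteinase, had -0.19 (adjusted p = 0.811). Of 10 genes for procollagen export from the endoplasmic reticulum, 1 was called and the median was 0.57. The called gene was CREB3L1, a transcription factor of the secretory pathway known to act on collagen genes, at 2.37 (SE 0.52, adjusted p = 0.0338). KDELR3, a retrieval receptor, had 1.36 (adjusted p = 0.0509), while SAR1B, a GTPase of the vesicle coat, and KLHL12, a ubiquitin ligase adaptor that acts on that coat, had -0.26 and -0.22 (adjusted p = 0.306 and 0.444). With the animal as a block, 0 genes of these 3 lists were called, and without the border zone library of animal 1022 there were 1, 1 and 2, with medians of 0.44, 0.61 and 0.32. That fit put P4HB at 0.19, ADAMTS3 at -0.37 and KLHL12 at -0.10.

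General chaperones of the endoplasmic reticulum, which fold all secreted proteins, were called in 0 of 13 cases, with 13 of 13 log2 fold changes above 0 and a median of 0.43. The highest were SDF2L1 at 1.06 (adjusted p = 0.189) and HYOU1 at 0.66 (adjusted p = 0.0661), and the lowest HSP90B1 at 0.14 and CANX at 0.15 (adjusted p = 0.596 and 0.634). The collagens were at the other end, with 7 of 10 chains called, 0 lower, and a median of 2.77. COL1A2 was at 3.27 (adjusted p = 0.0328), while the basement membrane chains COL4A1 and COL4A2 were at 0.81 and 0.58 (adjusted p = 0.0966 and 0.185). With the animal as a block, 0 of the 10 collagen chains were called. Without the border zone library of animal 1022 there were 8, with a median of 1.74, and COL1A2, COL4A1 and COL4A2 were at 2.09, 0.50 and 0.27.

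P4HA1, P4HA2 and PLOD2 are known targets of the hypoxia-inducible factor HIF-1, so other known targets were read in the same fit. Of 14 such genes 0 were called, 5 had a log2 fold change above 0, and the median was -0.18. NDRG1 and ENO1 were at the top, with 1.55 and 0.77 (adjusted p = 0.0801 and 0.157), and ALDOA, a glycolytic enzyme that heart muscle also uses in quantity, and ANKRD37 at the bottom, with -0.64 and -0.42 (adjusted p = 0.193 and 0.567). The median was -0.05, and NDRG1 and ENO1 were at 0.79 and 0.30, without the border zone library of animal 1022.

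**Figure D4:**
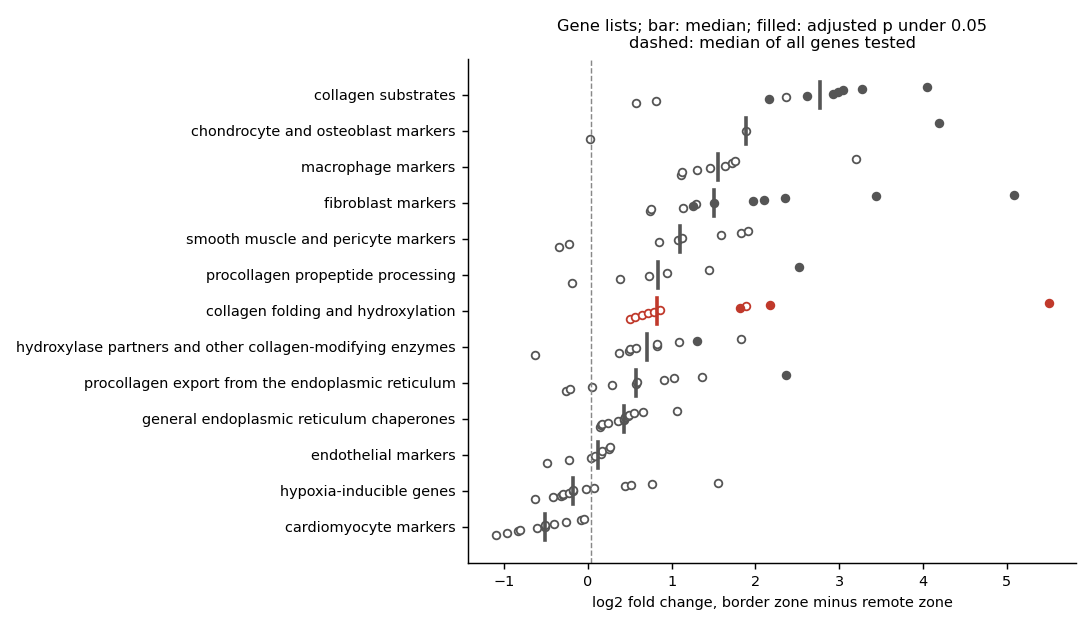
Log2 fold change of border zone over remote zone (x axis) for every tested gene of each list (y axis), from the edgeR fit with region only, with filled points for an adjusted p under 0.05, a bar at each list's median and a dashed line at the median of all genes tested. The 10 genes described here (red) have a median of 0.82, between those of the general chaperones, 0.43, and of the collagen chains, 2.77.

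Marker genes of cell types were read in the same fit. Fibroblast markers were called in 7 of 11 cases, with a median of 1.51, among them FN1 at 5.09 and POSTN at 3.44 (adjusted p = 0.0294 and 0.0396), and their summed level was higher in the border zone in 6 of 6 animals. POSTN was the 1 of the 11 called when the animal was a block. Cardiomyocyte markers had 0 of 11 called and 0 of 11 above 0, with a median of -0.51, the lowest being TNNI3 at -1.10 and MYL3 at -0.97 (adjusted p = 0.148 and 0.162), and their sum was lower in 6 of 6 animals. In the fit without the border zone library of animal 1022 the median was -0.32 and 2 of 11 were above 0. Smooth muscle and pericyte, macrophage and endothelial markers had 0 of 8 called each, with medians of 1.10, 1.55 and 0.12, which were 0.67, 0.62 and 0.07 without the border zone library of animal 1022. The fibroblast median was 1.22 in that fit, with FN1 at 2.76 and POSTN at 2.18. Of 9 chondrocyte and osteoblast markers 3 were tested and 1, CHAD, was called, at 4.19 (adjusted p = 0.0338, and 0.0773 with the animal as a block), with SOX9 at 1.89 (adjusted p = 0.0661) and BGLAP at 0.02 (adjusted p = 0.979). CHAD and SOX9 were at 2.46 and 1.10 without the border zone library of animal 1022. The defining markers ACAN, COL2A1, MATN1, SP7 and IBSP had no read in at least 1 library, and the summed level of the list was 7.40 to 320 CPM in border zone libraries, highest in animal 1022, against 2.94 to 5.005 CPM in remote zone libraries. The part of cell composition in the differences of the 10 genes was not tested.

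The 250 bases upstream of the RefSeq gene start on Sscrofa11.1 were read in 9 of the 10 genes for short motifs, since all 10 had a log2 fold change above 0. The core letters of a hypoxia response element, ACGTG and GCGTG, were searched on both strands. The heat shock repeat GAANNTTC, the CCAAT box, the TATA box in the form TATAAA and the endoplasmic reticulum stress element, in which CCACG follows 9 bases after CCAAT so that each match also holds a CCAAT box, were searched in the same way. GCGTG stood in 4 of 9 genes (P4HA1, P4HA2, PLOD2 and PLOD3) and in 32.2% of all 19556 upstream windows of this length, and ACGTG in 1 of 9, PLOD3, and in 18.7% of all windows. GAANNTTC stood in 1 of 9, P4HA2, and in 5.45% of all windows. The CCAAT box, the TATA box and the stress element had 0 of 9 each, and stood in 31.9%, 9.77% and 0.0716% of all windows. A match is a description of letters and not a site shown to be bound.

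The windows of the hypoxia targets P4HA1 and PLOD2 and of P4HA3, which was called, are shown 5′ to 3′ on the strand of the gene, ending at the base before the gene start, with ACGTG or GCGTG on either strand in capitals. That of P4HA1 is chr14:75919122-75919371, minus strand, with GCGTG 63 bases before the gene start and its reverse complement CACGC 28 bases before it. That of PLOD2 is chr13:86513168-86513417, minus strand, with GCGTG 23 bases before the start. That of P4HA3 is chr9:8681805-8682054, minus strand, and none of the 6 motifs searched is in it.
P4HA1: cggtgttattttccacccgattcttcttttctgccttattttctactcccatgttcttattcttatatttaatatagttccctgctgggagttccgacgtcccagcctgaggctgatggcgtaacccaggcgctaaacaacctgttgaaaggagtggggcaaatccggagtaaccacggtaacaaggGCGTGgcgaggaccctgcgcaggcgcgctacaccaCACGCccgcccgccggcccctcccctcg
PLOD2: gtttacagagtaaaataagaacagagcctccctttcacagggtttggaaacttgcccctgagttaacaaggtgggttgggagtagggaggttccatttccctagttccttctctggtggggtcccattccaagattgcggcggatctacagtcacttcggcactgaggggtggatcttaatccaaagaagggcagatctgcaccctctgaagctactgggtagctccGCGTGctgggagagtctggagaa
P4HA3: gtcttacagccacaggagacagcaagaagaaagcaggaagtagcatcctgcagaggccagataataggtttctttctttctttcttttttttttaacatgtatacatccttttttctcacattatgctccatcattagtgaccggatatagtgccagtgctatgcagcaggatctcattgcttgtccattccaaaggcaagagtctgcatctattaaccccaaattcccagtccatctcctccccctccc
The window of P4HA1 is 55.6% G and C, that of PLOD2 52% and that of P4HA3 43.6%, against a median of 57.6% over all windows.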

How the data were processed

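The values the authors deposited are raw read counts per gene of 12 poly(A) RNA libraries without strand information, made by paired-end sequencing, alignment to Sscrofa11.1 with STAR and counting with featureCounts on Ensembl gene models. How reads that fit several genes were counted is not given in the sources used here. Region and animal came from the labels, while the treatment of each animal was not used.

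Symbols were found for 15623 of 35682 identifiers. Counts were analysed with edgeR 4.0.16 (TMM, filter on low counts by region, robust quasi-likelihood test, region as the only term, Benjamini-Hochberg adjustment over 13844 genes) in R 4.3.3 and with DESeq2 1.42.0. Standard errors were derived from the fold change and the F statistic. Read totals of 15130210 to 31618680 set the precision for rare transcripts. The scripts were tested on simulated data.

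Libraries of 1 number come from 1 animal and so are paired. Their deviations from the zone means correlated across genes with a mean r of 0.35, from -0.03 in animal 1022 to 0.57 in animal 1323.

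The genes and lists were chosen with earlier results of these data known. Named are the 10 genes, up to the 2 highest and 2 lowest of each other list, and the 5 genes most like the mean of the 10. ZNHIT1 and FBXO24 were named because they overlap. Alternatives were another normalization, filter, tool or block and leaving out each animal. The fits without 1 border zone library, and the block with an animal left out, were chosen after seeing the data. Upstream sequences are from RefSeq's genome and gene starts, and the window of 1 gene is not reported here.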

Additional observations from a re-analysis of the deposited data

Results flagged for a closer look

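In each of 28 groups of 6 libraries, the gap between the most extreme library and its neighbour was compared with the group's range, and 3 groups had a gap above Dixon's 95% limit, where chance sets a library apart in about 1 of 20 groups. P4HA1 was high in the remote zone of animal 1323, at a log2 CPM of 5.60 against 4.68 in the next library. PLOD1 was high in the border zone of animal 1022, at 7.06 against 6.03. PLOD3 was high in the same library, at 6.41 against 5.26.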

How the results depend on the processing

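Over all genes, 287 were called in the fit with region only, 41 with the animal as a replicate block and 1724 with DESeq2's Wald test. DESeq2's size factors in edgeR gave 211 of 13844 genes, and library totals in place of TMM gave 1551. There were 139 without the filter and 149 where every library had at least 10 counts. Leaving out 1 animal gave 0 to 519, leaving out the border zone library of animal 3622 gave 156, and the block without animal 1022, 1322 or 1323 gave 856, 51 and 10, and 0 without animal 1623, 1922 or 3622 (settings that leave out 1 library or join the block with a left-out animal were chosen after seeing the data). Unadjusted p values under 0.05 numbered 2662 without animal 1623 and 2448 without animal 3622 in edgeR's fit with region only.

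Of the 10 genes described, 3 were called with region only and 0 with the block, 4 with DESeq2's Wald test, 1 with DESeq2's size factors, 6 with library totals, and 0 without the filter or with at least 10 counts in every library, where P4HA3 was not tested. Leaving out 1 animal gave 0 to 4, leaving out the border zone library of animal 3622 gave 1, and the block gave 5 without animal 1022 and 0 without any other animal. P4HA3 is in each of these counts above 0, and its part in them carries no weight. Under library totals the median log2 fold change was 0.32 over all genes, in place of 0.04, and 1.19 over the 10, in place of 0.82. In all alternatives the 10 genes kept a log2 fold change above 0, with 159 of 209 values on the same side of the threshold, 8 newly called and 42 no longer called. The cause of these losses was not tested.

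As unpaired groups, the ratios of PLOD2 to PLOD1 and to PLOD3, higher by 1.04 and 0.996, had an adjusted exact permutation p of 0.026. That test ignores the pairing by animal, and the paired one gave 0.0625. Under library totals ADAMTS3, SAR1B and KLHL12 changed sign, to 0.0833, 0.000296 and 0.0388. The few reads of P4HA3 in the remote zone, and 6 animals whose treatment was not used, limit these comparisons.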

Other observations

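The genes most like the 10 were sought among all 13844 genes tested, by the Pearson correlation of log2 CPM with the mean of the 10 over 12 libraries. The highest were B4GALT1 (r = 0.996), a galactosyltransferase of the Golgi, ADAM12 (r = 0.988), a metalloprotease of activated mesenchymal cells, SDC1 (r = 0.987), a cell surface heparan sulfate proteoglycan, SLC17A9 (r = 0.986), a vesicular nucleotide transporter, and ENTREP3 (r = 0.986). Without the border zone library of animal 1022 the 5 correlations were 0.965 to 0.989. ADAM12 rose from a median of 0.84 CPM in the remote zone to 9.87 CPM in the border zone (log2 fold change 5.31, edgeR adjusted p = 0.0293), and SDC1 from 0.733 to 5.11 CPM (3.92, adjusted p = 0.0338). SLC17A9 rose from 1.23 to 4.44 CPM (2.47, adjusted p = 0.0404). None of these 3 was called when the animal was a block, with adjusted p values of 0.0798, 0.0807 and 0.0820. B4GALT1 and ENTREP3 had log2 fold changes of 1.10 and 1.16 (adjusted p = 0.0509 and 0.0624). Without the border zone library of animal 1022 the log2 fold changes of ADAM12, SDC1 and SLC17A9 were 3.24, 2.29 and 1.56, and those of B4GALT1 and ENTREP3 were both 0.73 (adjusted p = 0.0284 and 0.0589). The 5 genes were picked for their likeness to a mean that was higher in the border zone, so their higher levels there follow from the choice and support nothing. The libraries share zones and animals, and the correlations are given without a test.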
